A study of Mus musculus with 58 samples.

Results

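The genes described here encode the proteases of the primary (azurophil) granule of neutrophils and monocytes and a set of proteins made in the same early myeloid cells: Mpo, Elane, Ctsg, Prtn3, Prss57, Cst7, Ms4a3, Nkg7 and Plac8. They were taken by symbol from a table of RNA counts in sorted mouse bone marrow cells, and all 9 were found among its 23152 symbols (12887 with any count). The cells came from wild-type C57BL/6 mice and fell into a pair of surface-marker gates. The common myeloid progenitor gate (CMP, 24 cells) took lineage-negative cells with Kit and CD34 and without Sca-1 and CD16/32. The long-term haematopoietic stem cell gate (LT-HSC, 34 cells) took lineage-negative cells with Kit and Sca-1 and without Flt3 and CD34. All 58 cells also carried a passage label whose meaning the labels do not state, and no label names an age, a sex or an animal.

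Primary granules are built at the promyelocyte stage, when the bone marrow precursor of neutrophils transcribes their cargo at a high rate and then stops. Mpo encodes myeloperoxidase, the haem enzyme that makes hypochlorous acid, and Elane, Prtn3, Ctsg and Prss57 encode the neutrophil serine proteases neutrophil elastase, proteinase 3, cathepsin G and the arginine-directed NSP4. Cst7 encodes cystatin F, an inhibitor of the cathepsins that activate these proteases. Ms4a3 is a membrane protein of granulocyte and monocyte progenitors, Nkg7 a granule membrane protein best known from cytotoxic lymphocytes, and Plac8 a small cysteine-rich protein of myeloid cells.

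Each CMP held a median of 290977 counts, from 88329 to 706184, and each LT-HSC a median of 236774, from 45022 to 860553. Summed over cells, the CMP pool held 7062737 counts and the LT-HSC pool 9931131. The labels name no animals, so each gate is taken as 1 sample, differences have no replicate check, and none was tested. All intervals are exact 95% intervals for counting error only. The sources used here do not state whether a count is a read or a molecule, and for reads the intervals would be wider. A level is given in CPM, counts scaled to the total of the cell or pool, and 3 counts over a pool are worth 0.425 CPM in CMP and 0.302 CPM in LT-HSC. The labelled cell types were checked on 9 stem cell genes, of which 8 were at least 2-fold lower in CMP and 0 at least 2-fold higher. The receptor gene Procr, a defining LT-HSC marker, had 0.850 CPM in CMP and 119 CPM in LT-HSC.

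Cells of both gates differed by cell number, which the labels give no meaning. In CMP 1 to 16, 7 genes had a count in every cell and none in CMP 17 to 24, among them the granule genes Camp and Ngp. Prg3 and Taco1 had a count in every one of CMP 17 to 24 and none in CMP 1 to 16. Ratios of counts also ran close together in CMP 17 to 24. Ms4a3 counts per Elane count lay between 0.0973 and 0.206 in these 8 cells, against 0 to 0.909 in the 8 of CMP 1 to 16 with at least 10 Elane counts. The 0.909 came from CMP 5 alone, and the next value was 0.143. Ly6c2 counts per Elane count lay between 0.124 and 0.175 in CMP 17 to 24, against 0.0596 to 20.03 in those 8 cells. The 20.03 came from CMP 3 alone, the next value was 0.257, and the medians were close (0.148 and 0.157). Prss57 counts per Elane count lay between 0.0177 and 0.0312 in CMP 17 to 24, against 0 to 0.575. The highest were 0.575 in CMP 9 and 0.124 in CMP 12. The upper ends of the wider ranges thus rest on few cells. The medians of Ms4a3 per Elane differed, at 0.167 in CMP 17 to 24 and 0.0652 in those 8 cells of CMP 1 to 16. The medians of Prss57 per Elane were close (0.0223 and 0.0217). The 8 cells of CMP 1 to 16 held 21 to 453 Elane counts, and CMP 17 to 24 held 113 to 816. Amplified cDNA of barcoded cells was pooled before the later steps, and a single RNA source spread over cells would also give close ratios. Its part in the values was not tested, so the members' levels and correlations are given within both sets of cells. LT-HSC 17 to 34 and LT-HSC 1 to 16 differed for several members too, and those values are given with the genes.

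Elane and Prtn3 are neighbours, and they are shown together because their transcripts parted in the stem cell gate. In the GENCODE M21 annotation of mm10, Prtn3 lies at chr10:79874476-79883174 and Elane at chr10:79886247-79888215, both on the plus strand and 3072 bases apart. Prss57 lies on the minus strand of the same chromosome, at chr10:79781474-79790961. The RefSeq starts of Prtn3 and Elane are 6645 bases apart on GRCm38.p6. The 130 bases before each RefSeq start are printed 5′ to 3′ on the plus strand, at chr10:79886182-79886311 for Elane and chr10:79879537-79879666 for Prtn3, with capitals marking, in order, GAGGAAGT (letters of a PU.1 site), CAACGG (a MYB match) and TATAAG (letters of a TATA box).
Elane: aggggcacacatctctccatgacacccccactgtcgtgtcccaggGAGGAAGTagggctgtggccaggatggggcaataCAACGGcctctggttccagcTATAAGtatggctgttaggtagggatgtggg
Prtn3: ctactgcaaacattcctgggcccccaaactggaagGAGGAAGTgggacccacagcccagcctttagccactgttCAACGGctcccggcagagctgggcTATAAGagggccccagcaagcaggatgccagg

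In both promoters the motif letters came in the same order and at nearly the same places. GAGGAAGT began at -85 in Elane and -95 in Prtn3, CAACGG at -51 and -56, and TATAAG at -31 and -32, all counted from the RefSeq start. Of 32851 RefSeq mouse promoter windows of 300 bases (250 before the start and 50 after), 3.2% held GAGGAAGT on either strand, 35% held CAACNG on either strand and 4.42% held TATAAG on the gene's strand. Only 17 of these windows, or 0.0517%, held all of these letters, and the Elane and Prtn3 windows were among them. RefSeq promoters were matched for 8 of the 9 members. Mpo also held GAGGAAGT, beginning at -224, and the shorter ETS core AGGAAG, which lies inside GAGGAAGT, was in windows of 7 members and in 35.4% of all windows. TTGCNNAA, the letters of a C/EBP site, stood in Cst7, Ms4a3 and Plac8 (10.8% of all windows), and TGTGGT, the letters of a RUNX site, in Cst7, Ctsg, Nkg7 and Plac8 (16.8%). AGATAA, the letters of a GATA site, stood in 0 member windows and in 11.2% of all windows. The motif letters were chosen with these sequences in view, and a match describes letters, not binding.

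Transcripts of 7 of the 9 members were at least 2-fold higher in the CMP pool than in the LT-HSC pool, where 28.1% of the 10937 genes with at least 20 counts were. Mpo, Elane, Ctsg and Cst7 passed 32-fold, as did 5.13% of those genes. The median log2 ratio of CMP over LT-HSC was 4.09 over the 9 members and 0.13 over all genes tested. Nkg7 and Prss57 were the members within 2-fold, and 0 members were at least 2-fold lower, against 22.7% of genes. Together the members took 4.00 to 220 of every 10000 counts of a CMP, with a median of 90.1, and 0.812 to 36.5 of every 10000 counts of an LT-HSC, with a median of 8.65. A CMP held at least 10 counts of 2 to 9 members (median 7), and an LT-HSC of 0 to 5 members (median 2).

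**Figure D1:**
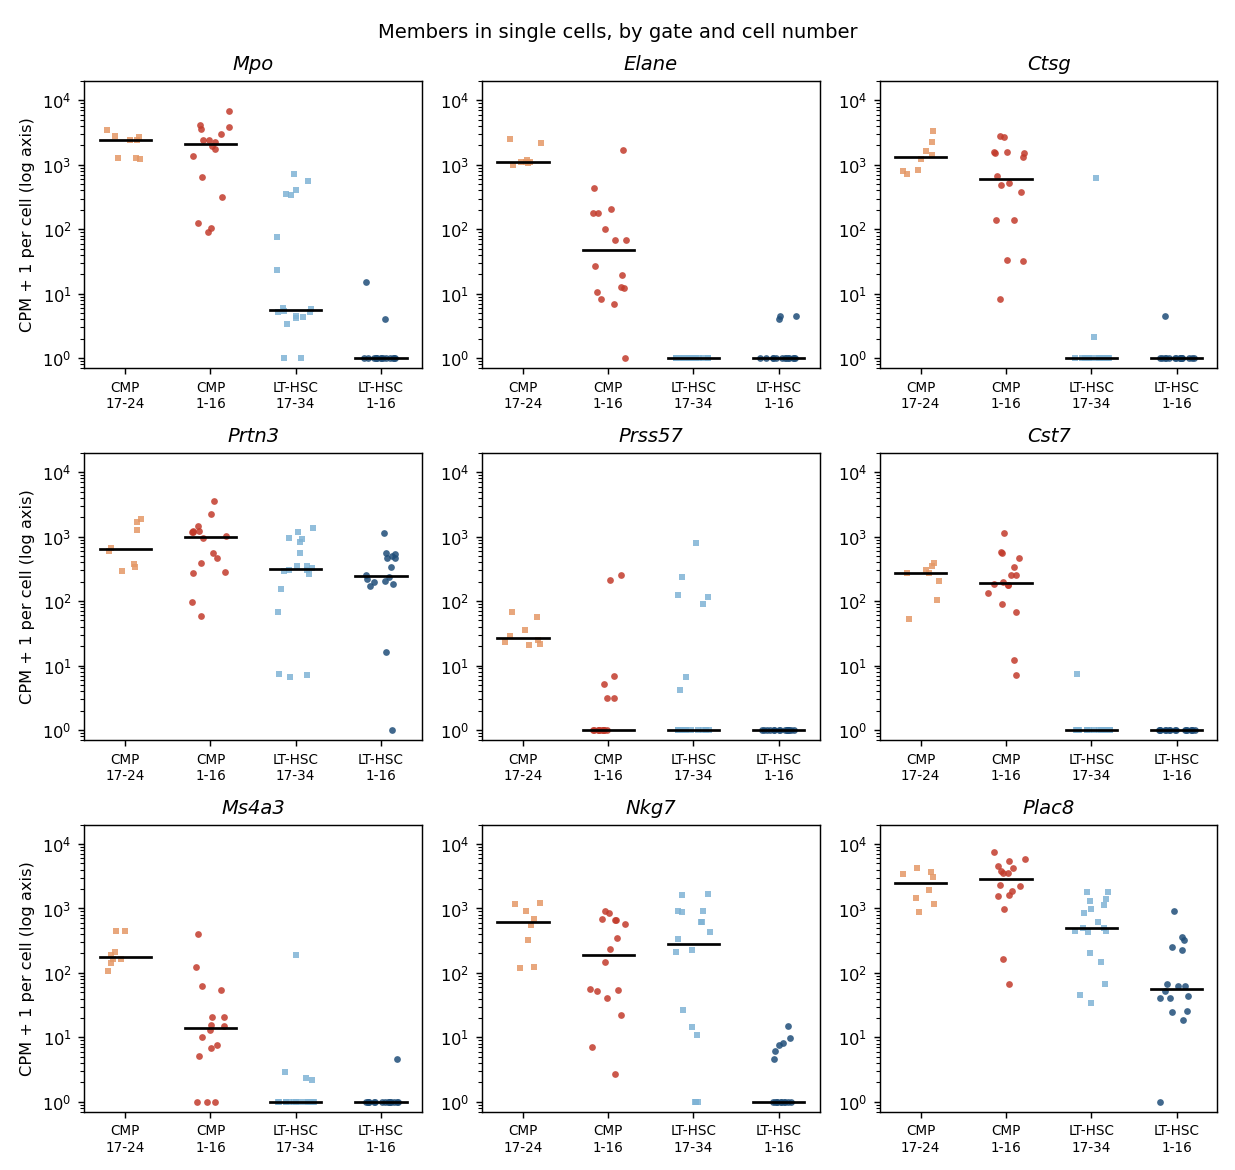
Each panel plots 1 member, with CPM + 1 per cell on a log axis and 1 point per cell, in CMP 17 to 24 (8 cells), CMP 1 to 16 (16), LT-HSC 17 to 34 (18) and LT-HSC 1 to 16 (16); bars are medians. Elane and Cst7 have at most 1 count in any LT-HSC, Prtn3 overlaps between the gates, and Elane and Ms4a3 sit higher in CMP 17 to 24 than in most of CMP 1 to 16.

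Mpo had counts in all 24 CMP, from 88.9 CPM in CMP 6 through a median of 2309 to 6903 CPM in CMP 12. In LT-HSC it had counts in 18 of 34 cells, with a median of 2.75 CPM and a highest value of 731 CPM. The highest LT-HSC thus lay within the range of the CMP, above the lowest of them, although the medians stood far apart. In the pools Mpo had 2086 CPM in CMP and 41.1 CPM in LT-HSC, a 50.8-fold difference (46.0 to 56.2). The level in CMP differed little by cell number, with 2244 CPM in CMP 17 to 24 and 1997 CPM in CMP 1 to 16.

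The LT-HSC counts of Mpo came from a few cells. Of 408 counts, 406 were in cells 17 to 34 and 2 in cells 1 to 16. LT-HSC 19, 23, 24, 29, 30 and 31 held 41, 89, 108, 60, 24 and 66 counts, and no other LT-HSC held more than 3. The fold of CMP over LT-HSC was therefore 33.5 against LT-HSC 17 to 34, and 3557 (985 to 29377) against the 2 counts of LT-HSC 1 to 16.

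Elane, the elastase gene, ran from 0 CPM in CMP 11 through a median of 177 to 2502 CPM in CMP 22. Among the 34 LT-HSC it had 3 counts in all, 1 each in LT-HSC 1, 4 and 10. The pooled level was 634 CPM in CMP and 0.302 CPM in LT-HSC, a ratio of 2100 (718 to 10188). Elane differed among CMP by cell number more than any other member except Ms4a3. It had 1411 CPM in CMP 17 to 24 and 194 CPM in CMP 1 to 16, a 7.28-fold difference, while 19.7% of 9527 genes passed 2-fold in the same direction. All of CMP 17 to 24 held at least 989 CPM, and of CMP 1 to 16 only CMP 12 held more than that, with 1723 CPM. Against LT-HSC the ratio was 4672 (1597 to 22666) for CMP 17 to 24 and 642 (219 to 3119) for CMP 1 to 16.

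Ctsg, the cathepsin G gene, had counts in every CMP, from 7.40 CPM in CMP 6 through a median of 1019 to 3365 CPM in CMP 20. Only 3 of the 34 LT-HSC held a Ctsg count, and LT-HSC 31 held 74 of the 76. The pools stood at 1108 CPM in CMP and 7.65 CPM in LT-HSC, a 145-fold difference (116 to 184). LT-HSC 17 to 34 held 75 of the 76 counts and LT-HSC 1 to 16 held 1. Without LT-HSC 31 the same comparison gave a ratio of 4349. That cell also held 66 Mpo counts and 0 Elane, Prss57, Cst7 and Ms4a3 counts. Within CMP, Ctsg had 1604 CPM in CMP 17 to 24 and 826 CPM in CMP 1 to 16.

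Prtn3, the proteinase 3 gene, was the serine protease transcript found in nearly every stem cell. It ran from 58.7 CPM through a median of 804 to 3522 CPM in CMP, and from 0 through a median of 303 to 1375 CPM in LT-HSC. The gates overlapped over most of their range, and only LT-HSC 14 had no Prtn3 count. The pooled levels were 977 CPM in CMP and 387 CPM in LT-HSC, a 2.53-fold difference (2.43 to 2.63). The difference was much the same by cell number, at 2.97-fold over LT-HSC 1 to 16 and 2.34-fold over LT-HSC 17 to 34.

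Prtn3 and its neighbour Elane thus differed in the stem cell gate, with 3843 counts of Prtn3 and 3 of Elane in the same 34 cells. LT-HSC 1 to 16 held 1121 Prtn3 counts beside 2 of Mpo and 1 of Ctsg. In the CMP, by contrast, Prtn3 counts per Mpo count had a median of 0.468, from 0.188 to 3.74. After every cell was thinned to 97978 counts, which left out 2 CMP and 4 LT-HSC, Prtn3 was detected in 22 of 22 CMP and 27 of 30 LT-HSC. At that depth Elane was detected in 20 of 22 CMP and 0 of 30 LT-HSC, and Mpo in 22 of 22 CMP and 9 of 30 LT-HSC. Whether the stem cells carry full-length Prtn3 transcripts cannot be read from 3′ end counts. Prtn3 overlaps Plppr3 on the opposite strand only at its 5′ end, at chr10:79874476-79874634, while the counts are of 3′ ends. Whether counting used strand is not given in the sources used here, and the part of Plppr3 was not tested.

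Prss57, the gene of the arginine-directed protease, was sparse in both gates and set apart from the other proteases. It ran from 0 CPM through a median of 3.20 to 252 CPM in CMP, and from 0 through a median of 0 to 802 CPM in LT-HSC. The pooled levels were 27.2 CPM in CMP and 39.5 CPM in LT-HSC, a log2 ratio of -0.54 (-0.79 to -0.29). All but 2 of the 392 LT-HSC counts lay in 5 cells, with 90 in LT-HSC 17, 77 in LT-HSC 18, 45 in LT-HSC 19, 94 in LT-HSC 32 and 84 in LT-HSC 34. LT-HSC 1 to 16 held none, and the interval reached 1.08 CPM. With 3 counts assumed for these cells the CMP level was 30.9-fold higher, and the interval of the ratio began at 24.9. With every cell thinned, which also left out LT-HSC 19 as too shallow, the log2 ratio of the pools was 0.71, and with each cell's CPM averaged and every cell kept it was -0.37. In CMP, 56 of the 192 counts came from CMP 12 and 42 from CMP 9, while CMP 17 to 24 held 2 to 21 each.

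Cst7, the cystatin F gene, was nearly absent from LT-HSC, as Elane was, and unlike Elane it had a count in every CMP. It ran from 6.22 CPM in CMP 5 through a median of 226 to 1130 CPM in CMP 8. The 34 LT-HSC held 1 count in all, worth 6.31 CPM in LT-HSC 28, so the gates met only at the lowest CMP. Pooled levels were 255 CPM in CMP and 0.101 CPM in LT-HSC, a ratio of 2530 (453 to 99970), and without LT-HSC 28 the fold was at least 830. Cst7 was as high in 1 set of CMP as in the other, with 248 CPM in CMP 17 to 24 and 258 CPM in CMP 1 to 16. The interval of that difference held 0 (log2 -0.06, -0.20 to 0.08).

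Ms4a3, the progenitor membrane protein, ran from 0 CPM through a median of 36.6 to 452 CPM in CMP, where 3 cells had no count. In LT-HSC, 58 of its 62 counts came from LT-HSC 22 and the median was 0, with 61 counts in cells 17 to 34 and 1 in cells 1 to 16. The pools held 107 CPM in CMP and 6.24 CPM in LT-HSC, a 17.2-fold difference (13.2 to 22.6), and the ratio without LT-HSC 22 was 229. Like Elane it was higher in CMP 17 to 24, at 241 CPM, than in CMP 1 to 16, at 31.5 CPM, a 7.64-fold difference. In CMP 1 to 16 its highest cell was CMP 14, with 407 CPM, where Mpo had 125 CPM and Elane 26.3 CPM. Ms4a3 was therefore high in a cell with little Mpo and Elane. Ctsg was low in that cell too, at 32.8 CPM, but Prtn3 had 466 CPM.

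Nkg7, the granule membrane protein gene, ran from 1.72 CPM through a median of 333 to 1205 CPM in CMP, and from 0 through a median of 6.92 to 1692 CPM in LT-HSC. The pooled levels lay close, at 427 CPM in CMP and 349 CPM in LT-HSC (log2 ratio 0.29, 0.22 to 0.36). That closeness hid a split among the stem cells: 3457 of the 3465 LT-HSC counts were in cells 17 to 34 and 8 in cells 1 to 16. The log2 ratio of all CMP was 7.42 over LT-HSC 1 to 16 and -0.31 over LT-HSC 17 to 34, and that of CMP 1 to 16 over all LT-HSC was -0.23, so the direction differed with the cells taken. Within LT-HSC 17 to 34 the values were uneven too, with 744 counts in LT-HSC 33, 548 in LT-HSC 30 and 0 in LT-HSC 19, 20, 24 and 25. The cytotoxic lymphocyte genes fixed as markers were near 0: Prf1, Cd3e, Cd3d, Cd3g and Cd2 were listed at 0 in all cells, and their list summed to at most 1.34 per 10000 counts in a CMP and 0 in every LT-HSC. Klrd1 alone of these 9 genes had at least 20 counts, with 98 in CMP and 0 in LT-HSC.

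Plac8 was present across both gates. It ran from 66.6 CPM in CMP 6 through a median of 2701 to 7637 CPM in CMP 8, and from 0 through a median of 241 to 1830 CPM in LT-HSC. The ranges overlapped, but 33 of 34 LT-HSC and all 24 CMP had a count. The pooled levels were 2992 CPM in CMP and 524 CPM in LT-HSC, a 5.71-fold difference. By cell number it was 17.0-fold higher in CMP than in LT-HSC 1 to 16 and 4.24-fold higher than in LT-HSC 17 to 34. In CMP it differed little by cell number, with 2649 CPM in CMP 17 to 24 and 3186 CPM in CMP 1 to 16.

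**Figure D2:**
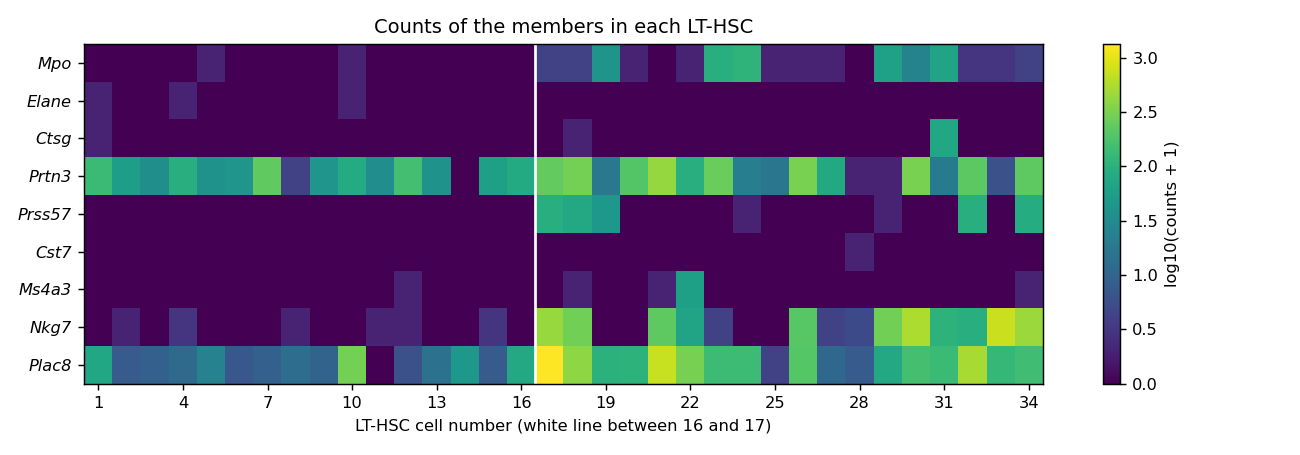
Counts of each member in each of the 34 LT-HSC, as log10(counts + 1), with cells in order of their number and a white line between 16 and 17. Prtn3 and Plac8 have counts in 33 of 34 cells each, Nkg7, Mpo and Prss57 have nearly all their counts to the right of the line, and Elane and Cst7 have 3 counts and 1 count in all.

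Among LT-HSC, 6 of the 9 members were at least 2-fold higher in cells 17 to 34 than in cells 1 to 16, as were 29.5% of 9669 genes, whose median log2 ratio was 0.10. The log2 ratio was 7.73 for Nkg7, 6.41 for Mpo, 4.72 for Ctsg, 4.42 for Ms4a3 and 2.01 for Plac8. Prss57 was 68.3-fold higher with 3 counts assumed for LT-HSC 1 to 16, and its interval began at 55.3. Prtn3 differed little (0.34). Elane, with 0 counts in LT-HSC 17 to 34 (interval up to 0.566 CPM) and 3 in LT-HSC 1 to 16, and Cst7, with 1 count and 0, were too sparse to give a direction. The 6 cells with at least 10 Mpo counts all held Prtn3 and Plac8 and shared no other member. Ctsg stood only in LT-HSC 31, Prss57 above 1 count only in LT-HSC 19, and Nkg7 above 3 counts only in LT-HSC 29, 30 and 31, with 284, 548 and 105. Elane, Cst7 and Ms4a3 were at 0 in all 6. The same 6 cells held 17, 259, 21, 1, 309 and 18 Prtn3 counts. Within these stem cells, Mpo and Prtn3 counts therefore came in very different proportions, from 0.0167 to 12.9 Prtn3 counts per Mpo count.

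Among CMP, 4 cells stood low for Mpo. CMP 6, 7, 14 and 1 held 88.9, 105, 125 and 321 CPM, and every other CMP held at least 647 CPM. CMP 6 and 7 held 1653 and 3196 counts of Pf4, the platelet factor gene of megakaryocytes, where no other CMP except CMP 22 (1860) held more than 127. CMP 22 had 2735 CPM of Mpo and 2502 CPM of Elane beside its Pf4 counts. CMP 19 had 170 counts of the erythroid factor gene Gata1 and 809 of Car1, with 1273 CPM of Mpo and 1210 CPM of Elane. Both of these cells with mixed transcripts belong to CMP 17 to 24, where counts of Ms4a3, Ly6c2 and Prss57 per Elane count ran close together. The part of RNA from other cells in these counts was not tested.

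**Figure D3:**
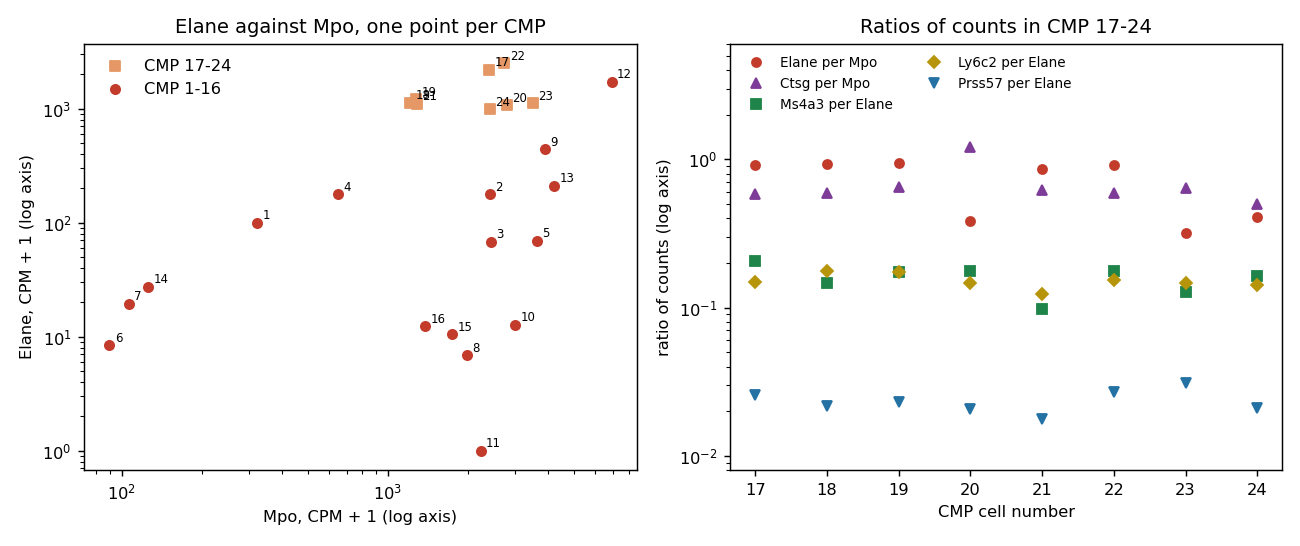
Left, Elane against Mpo as CPM + 1 on log axes, 1 point per CMP with its cell number, in CMP 17 to 24 and CMP 1 to 16. Right, ratios of counts in each of CMP 17 to 24 on a log axis; Elane per Mpo takes values near 0.9 in 5 cells and from 0.320 to 0.409 in 3, and Ms4a3, Ly6c2 and Prss57 per Elane stay within narrow bands.

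Elane and Mpo, the elastase and peroxidase genes, kept different proportions by cell number. Elane counts per Mpo count, compared between cells and not as levels of the genes, ranged from 0.320 to 0.951 in CMP 17 to 24 and from 0 to 0.308 in CMP 1 to 16. These ranges did not overlap. In CMP 17, 18, 19, 21 and 22 the ratio was 0.918, 0.930, 0.951, 0.863 and 0.915, and in CMP 20, 23 and 24 it was 0.386, 0.320 and 0.409. The first 5 cells also shared their Prtn3 counts per Mpo count, between 0.241 and 0.298, while CMP 20, 23 and 24 held 0.606, 0.529 and 0.532. Ctsg counts per Mpo count lay between 0.584 and 0.650 in those 5 cells. In CMP 1 to 16 the Ctsg ratio ran from 0.0571 to 0.905 and the Prtn3 ratio from 0.188 to 3.74. The groups of 5 and 3 cells were picked out after these ratios were seen, and no label separates them.

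Over the 24 CMP, Mpo, Ctsg, Prtn3 and Plac8 ranked the cells alike, in all CMP and in both sets of cells. Correlations are Spearman rho of CPM over cells of 1 gate that share their preparation, and they describe these cells without a test. Mpo with Prtn3 had rho 0.84 over all 24 cells, 0.98 in CMP 17 to 24 and 0.86 in CMP 1 to 16. Mpo with Ctsg had 0.81, 0.93 and 0.85 in the same order, and Ctsg with Prtn3 0.70, 0.88 and 0.74. Plac8 joined them, with rho 0.74 with Prtn3, 0.66 with Mpo and 0.56 with Ctsg over all cells, and at least 0.66 with each of the 3 within either set of cells. The rho of Mpo, Ctsg, Prtn3 and Plac8 with the total count of the cell was -0.07, -0.02, -0.06 and 0.15. Leaving out the 2 CMP farthest from the median Mpo gave 0.79 for Mpo with Prtn3 and 0.76 for Mpo with Ctsg.

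Elane stood outside this set in a way that hung on the cells taken. Its rho with Mpo was 0.34 over all CMP, -0.21 in CMP 17 to 24 and 0.53 in CMP 1 to 16, and with Prtn3 it was 0.24, -0.38 and 0.50. Its strongest partners over all cells were Prss57, at 0.80, and Ms4a3, at 0.65. Within CMP 1 to 16 the same pairs gave 0.43 and 0.20, and within CMP 17 to 24, where the count ratios ran close together, 0.86 and 0.71. Nkg7 had a weak negative rho with Plac8, at -0.36 over all cells, -0.40 in CMP 17 to 24 and -0.33 in CMP 1 to 16. Pearson's r of log CPM for this pair was -0.14 over all cells. Its highest rho with a member was with Ms4a3, at 0.57 over all CMP, 0.05 in CMP 17 to 24 and 0.50 in CMP 1 to 16. Cst7 had its highest rho with Prss57, at 0.46 over all cells, with opposite signs in CMP 17 to 24 (-0.48) and CMP 1 to 16 (0.66).

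**Figure D4:**
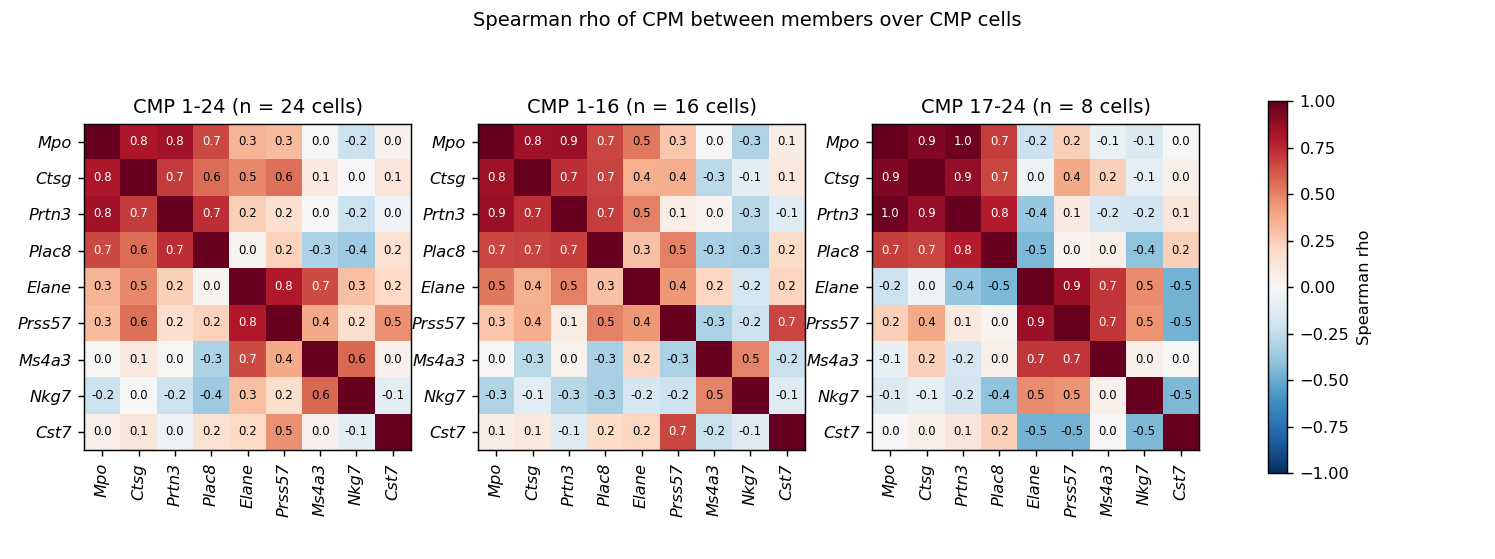
Spearman rho of CPM for each pair of members, over all 24 CMP, CMP 1 to 16 and CMP 17 to 24, with the colour scale from -1 to 1. The block of Mpo, Ctsg, Prtn3 and Plac8 is red in every panel, while the Elane row changes between panels.

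Of the 36 pairs of members, 10 (27.8%) had rho of at least 0.5 over the 24 CMP, against 1.1% of all pairs of 4705 genes detected at least as well as the least detected member. The median over member pairs was 0.21, from -0.36 to 0.84, and the median over all pairs of genes 0.02. In CMP 17 to 24, 9 pairs reached 0.5, against 12.4% of all pairs, and the median was 0.05. In CMP 1 to 16, 10 pairs did, against 3.23%, and the median was 0.19. The members are therefore not a single block in these cells. All 6 pairs among Mpo, Ctsg, Prtn3 and Plac8 reached 0.5 over all CMP and in both sets of cells, and the median over pairs was low. Ctsg with Prss57 came close to Ctsg with Plac8 over all CMP (0.55 and 0.56), but had 0.38 in CMP 17 to 24 and 0.36 in CMP 1 to 16.

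Regulators of the myeloid programme were set beside the members, with rho over all CMP, in CMP 17 to 24 and in CMP 1 to 16, in that order. Irf8, a monocyte and dendritic lineage factor gene, had 0.75, 0.90 and 0.74 with Plac8 and 0.64, 0.88 and 0.53 with Prtn3, but 0.11, -0.55 and 0.19 with Elane. Spi1, which encodes PU.1, had 0.60, 0.81 and 0.58 with Prtn3, 0.54, 0.71 and 0.57 with Mpo and 0.16, -0.62 and 0.05 with Elane. Cebpa, the C/EBPα gene needed for granulocyte progenitors, had 0.70, 0.69 and 0.64 with Ctsg and 0.20, 0.40 and 0.30 with Elane. Gata1, the erythroid factor gene, had -0.51, -0.49 and -0.57 with Prtn3, -0.41, -0.23 and -0.65 with Plac8 and -0.10, 0.71 and -0.21 with Elane. With Elane, Irf8 and Spi1 were negative in the 8 cells of CMP 17 to 24 and near 0 or weakly positive elsewhere. Cebpa was positive with Elane in both sets, but it held only 102 counts over the 24 CMP, 34 of them in CMP 20. Its rho values, with Ctsg as well, thus rest on few counts in most cells. Nkg7 had 0.17, 0.10 and 0.70 with Cpa3, the mast cell carboxypeptidase gene, so that value stood in CMP 1 to 16.

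The genes most like the members were ranked by rho with the mean rank of the 9 members, over 6224 genes with at least 100 CMP counts in at least 8 CMP. Ypel2 led at 0.74, with 0.74 in CMP 17 to 24 and 0.78 in CMP 1 to 16, which are parts of the cells that ranked it. Its 101 counts lay in 9 of the 24 CMP, just past the filter, so most cells were tied at 0. It was followed by Asb13 (0.69), with 111 counts in 9 CMP, and by Ly6c2 (0.67), a surface antigen gene of monocytes and their progenitors. Sp140, Aph1c, Sec61b, Pstpip1, Igsf6, Gpr132, Ola1, Fam175a and Fcgr3 completed the 12, between 0.62 and 0.59. Fcgr3 encodes CD16, a surface protein that the CMP gate excluded. The lowest were Umps (-0.65), an enzyme gene of pyrimidine synthesis, Tmem120a, Cep70, Sppl2b, Nmi, Dut (-0.62), which clears dUTP during DNA synthesis, Setd8 and Hspa4. Only 9 genes reached 0.6 and 6 fell to -0.6 or lower, and the median over all 6224 was -0.01. The 11 genes after Ypel2 gave values from -0.49 for Fam175a to 0.74 for Fcgr3 in CMP 17 to 24, where Sec61b was also negative (-0.30), and from 0.23 for Pstpip1 to 0.61 for Fam175a in CMP 1 to 16.

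Genes that store, activate or restrain the granule proteases did not share the members' difference between gates. Of 13, 4 were at least 2-fold higher in CMP, 3 at least 2-fold lower and 6 between, with a median log2 ratio of 0.34. Slpi, a secreted elastase and cathepsin G inhibitor, stood highest, with 110 CPM in CMP and 0.906 CPM in LT-HSC. Ap3b1, an adaptor subunit linked to the sorting of elastase to granules, had 98.3 CPM in CMP and 23.6 CPM in LT-HSC. Ctsc, the cathepsin that activates the serine proteases, was lower in CMP, with 15.6 CPM, than in LT-HSC, with 63.4 CPM (log2 -2.02). Of its substrates, Elane, Ctsg and Prtn3 were higher in the CMP pool and Prss57 was lower (log2 -0.54). Serpina3g, a serpin gene, was lower in CMP as well, at 63.3 CPM, against 341 CPM in LT-HSC. Srgn, the proteoglycan that holds proteases in granules, had 1510 CPM in CMP and 2045 CPM in LT-HSC, and Serpinb1a, a cytosolic elastase inhibitor, 256 CPM and 150 CPM.

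Other cargo of primary granules and lysosomes did not pass 2-fold upward in CMP. Of 5 genes with at least 20 counts, 0 were at least 2-fold higher, 2 at least 2-fold lower and 3 between, with a median of -0.67. Lyz2, a lysozyme gene, had 171 CPM in CMP and 463 CPM in LT-HSC, and Cd63, a granule membrane tetraspanin, 168 CPM and 601 CPM. Man2b1 had the highest ratio of the list, with 70.7 CPM in CMP and 48.7 CPM in LT-HSC (log2 0.54, 0.35 to 0.72). Bpi, a further primary granule gene, was listed at 0 in every cell. A listing of 0 throughout does not show absence, since the glycolysis gene Eno1 was listed at 0 in every cell as well.

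Most genes listed for later granules and mature neutrophils split by cell number and not only by gate. Of 11, 5 were at least 2-fold higher in CMP, 1 at least 2-fold lower and 5 between, with a median of 0.94. S100a8, a calprotectin subunit gene of mature neutrophils, had 434 CPM in CMP and 155 CPM in LT-HSC. Within CMP it had 32.1 CPM in CMP 17 to 24 and 661 CPM in CMP 1 to 16, with at least 27 counts in each of CMP 1 to 16 and at least 8 in every LT-HSC. Camp, a cathelicidin gene, had 0 counts in CMP 17 to 24 and 926 in CMP 1 to 16, and 33 of 34 LT-HSC held it. Cybb of the same list differed less. It had 8.22 CPM in CMP 17 to 24, with counts in 7 of 8 cells, and 13.3 CPM in CMP 1 to 16, with counts in 6 of 16. Late neutrophil transcripts such as S100a8 and Camp thus stood in almost all cells outside CMP 17 to 24. The LT-HSC, all of which hold S100a8, had 3 counts of Elane and 1 of Cst7, beside 3843 of Prtn3 and 5204 of Plac8. The part of late neutrophil RNA in the values of the members was not tested.

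Most early granulocyte and monocyte genes were higher in CMP, as most members were. Of 14 with at least 20 counts, 11 were at least 2-fold higher in CMP, 1 at least 2-fold lower and 2 between, with a median of 2.36. Csf1r, the receptor gene of macrophage colony-stimulating factor, had 20.8 CPM in CMP and 0.201 CPM in LT-HSC, and Clec12a, a myeloid lectin receptor gene, 202 CPM and 3.42 CPM. Ly6c2 had 185 CPM in CMP and 10.2 CPM in LT-HSC, with 49.1% of its CMP counts in CMP 3. Csf3r, the granulocyte colony-stimulating factor receptor gene, was close in both, at 18.97 CPM in CMP and 22.5 CPM in LT-HSC. All 14 had a positive rho with the members' mean rank over the 24 CMP (median 0.36), as had all 14 in CMP 17 to 24 (median 0.32) and 13 of 14 in CMP 1 to 16 (median 0.40).

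Of 10 myeloid transcription factor genes with at least 20 counts, 5 were at least 2-fold higher in CMP, 0 at least 2-fold lower and 5 between, with a median of 0.96. Irf8 had 303 CPM in CMP and 12.6 CPM in LT-HSC, and Cebpa 14.4 CPM and 0.906 CPM. Spi1 differed little, with 211 CPM in CMP and 137 CPM in LT-HSC. Myb, the gene of the factor whose site letters were searched as CAACNG, had 279 CPM in CMP and 113 CPM in LT-HSC, and Runx1 127 CPM and 87.1 CPM.

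Markers of other lineages also differed between the gates, and they are given for their whole lists. Of 14 erythroid genes, 10 were at least 2-fold higher in CMP, 1 at least 2-fold lower and 3 between (median 1.83), and their sum ran from 0.653 to 47.0 per 10000 counts in CMP and from 3.38 to 41.3 in LT-HSC. Of 11 megakaryocyte genes, 5 were higher, 2 lower and 4 between (median 0.83), with sums up to 138 per 10000 in CMP and 11.4 in LT-HSC. All 6 mast cell and basophil genes with at least 20 counts were higher in CMP (median 5.62, or 5.04 with 3 counts assumed for genes without LT-HSC counts). Their list had sums up to 38.9 per 10000 in CMP and 3.60 in LT-HSC, while Gzmb, Cma1 and Tpsb2 were listed at 0. CMP 15 held 783 of the 1762 Cpa3 counts in CMP. Of 8 macrophage genes, 2 had at least 20 counts, both higher in CMP, and Adgre1 and Mrc1 were listed at 0. Of 6 B cell genes, only Cd79b had at least 20 counts, with a log2 ratio of -0.78, and of 6 dendritic genes only Bst2, at -1.09. In CMP, 0 of 13 erythroid genes had a positive rho with the members' mean rank over all 24 cells (median -0.29), against 5 of 13 in CMP 17 to 24 (median -0.03) and 5 of 13 in CMP 1 to 16 (median -0.15). The part of these other lineages in the members' values was not tested.

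Genes next to the members had a smaller median difference between the gates than the members. Within 100 kb of a member, GENCODE M21 lists 61 other protein-coding genes, of which 28 had at least 20 counts. Of these, 10 passed 2-fold upward in CMP and 4 downward, with a median log2 ratio of 0.48. Over all genes tested, 28.1% passed upward and 22.7% downward, with a median of 0.13. Mcpt8, a basophil protease gene 14607 bases from Ctsg on chromosome 14, had 395 CMP counts and 14 LT-HSC counts. Ms4a2, the mast cell and basophil gene of an IgE receptor subunit, 5776 bases from Ms4a3 on chromosome 19, had 60 CMP counts and 0 LT-HSC counts, at least 28.1-fold higher. Med16, a Mediator subunit gene 6492 bases from Elane, had 435 CMP counts and 437 LT-HSC counts (log2 ratio 0.49). Ptbp1, a splicing factor gene 9704 bases from Prtn3, had 612 CMP counts and 338 LT-HSC counts. Its log2 ratio of 1.35 was close to the 1.34 of Prtn3. Plac8's neighbour Cops4, 5921 bases away on chromosome 5, had 870 CMP counts and 1000 LT-HSC counts (log2 ratio 0.29).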

How the data were processed

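Single cells were sorted and prepared by a modified Smart-seq2 protocol with a barcode and a molecular identifier in the oligo(dT) primer, and 3′ ends of pooled, amplified cDNA were captured, per the labels' protocols. The deposited values are whole counts in 1 table made by the authors, a symbol per row and a cell per column. The submitters' processing notes name mm10, TopHat2 2.0.12, HTSeq and Seurat 2.0, without role or order. All 58 columns were matched to cells by name, none was left out, and doublets were not called, since cells were placed singly.

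Counts were summed per gate and scaled to CPM. Log2 ratios used 0.5 added to each count, with exact Poisson and conditional binomial intervals at 95% (scipy 1.17.1, numpy 2.4.6, pandas 2.3.3, Python 3.11.15, matplotlib 3.10.9). A fold against a pool without counts used 3 counts over the pool. Genes needed 20 counts over both pools for a count of folds. The calculation was checked on simulated counts. The members and gene lists were chosen with earlier results of these data known. Genes named from lists had at least 20 counts or were listed at 0, and the 12 highest and 8 lowest ranks of likeness were named. Eno1, single neighbours of members and cells singled out by number were named after their values were seen, as were the splits of CMP at cell 16 and LT-HSC at cell 16. The set of Mpo, Ctsg, Prtn3 and Plac8 was also formed after the rho values were seen. Coordinates are 1-based from GENCODE M21, and promoters come from RefSeq on GRCm38.p6.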

Additional observations from a re-analysis of the deposited data

How the results depend on the processing

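The number of members at least 2-fold higher in CMP stayed at 7 under every alternative run except with LT-HSC 1 to 16 only, where it was 9. The median log2 ratio was 7.93 with LT-HSC 1 to 16 only, 3.51 with LT-HSC 17 to 34 only, 5.26 with CMP 17 to 24 only and 2.60 with CMP 1 to 16 only. Leaving out each cell in turn gave 3.81 (without CMP 17) to 5.62 (without LT-HSC 22), and always 7 members. The median pairwise rho was 0.0476 in CMP 17 to 24 only, and leaving out each CMP gave 0.153 to 0.269. Averaging CPM over cells in place of pooling, size factors, thinning, another added count, a minimum of 100 counts and leaving out shallow cells or CMP 1 and 2 moved none of these beyond its spread, nor did Pearson's r, totals without the members or CMP 3 to 16 for the median rho. Of the values of single members and pairs under all these settings, the runs by cell number included, 104 kept within their bounds and 75 moved outside. The bounds were the counting interval for a member and the range from leaving out each CMP for a pair. The sign of the log2 ratio was the same in every alternative for each member except Prss57 and Nkg7. Prss57 had 0.71 with thinning, and with LT-HSC 1 to 16 only it was 30.9-fold higher in CMP with 3 counts assumed. Nkg7 had -0.31 with LT-HSC 17 to 34 only and -0.23 with CMP 1 to 16 only. The splits of CMP by cell number were added after the values were seen. No paired analysis was possible because replicate numbers only name cells and no result comes from a test. Depth limits Prss57, Ms4a3 and Elane most: many cells hold fewer than 10 counts of them, and Elane, Cst7 and most Ctsg and Ms4a3 ratios rest on 1 LT-HSC or a few counts.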
